A study of Procambarus virginalis with 3 samples.

Results

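The 61 gene models described here had a higher expression level in 1 hemocyte RNA-seq library of the marbled crayfish (*Procambarus virginalis*), hem39, than in both of its replicates, hem37 and hem40. They were chosen by the expected count, which is the estimated number of reads per gene model given by RSEM, a program that divides reads matching several models between them. A minimum of 10 for the mean over the 3 libraries left 16140 of 21773 models, called retained models here. For these, 0.5 was added to each count and the sum was divided by the library total, and a model became a member when this count share in hem39 was more than 5 times that in hem37 and more than 5 times that in hem40. The 61 members are 0.378% of the retained models.

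All 3 libraries were made from hemocytes of wild animals caught in lake Reilingen and pooled, and they form 1 group, for which the labels name no treatment. The labels do not state the number of animals per library, and differences between animals and between library preparations cannot be told apart. The marbled crayfish reproduces by parthenogenesis, so its animals form a clone. The totals of expected counts were 17367967 in hem39, 18986789 in hem37 and 21143354 in hem40. Because the members were selected on the difference between hem39 and the other libraries, their levels and ratios are given as a description with no test, and each library contributes 1 value.

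Hemocytes are the circulating blood cells of crustaceans. They carry out phagocytosis, clotting and melanization of wounds and pathogens, release antimicrobial peptides, and can change their transcript levels after infection, injury or moulting. The deposited identifiers name a scaffold of the draft genome and the way a model was built, but they are not paired with gene names or functions. The tissue label could therefore not be checked against hemocyte markers, nor could markers of other tissues be examined, and the roles of the members are not known here. In bulk RNA, a higher share of a cell type and more RNA per cell cannot be told apart.

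Each of the other libraries alone was exceeded by more models than both together. The count share in hem39 was more than 5 times that in hem37 for 154 retained models (0.954%) and more than 5 times that in hem40 for 133 (0.824%). The 61 members passed both conditions by construction. With hem37 left out, 136 models passed against hem40 alone, and with hem40 left out, 138 passed against hem37 alone, where the minimum was taken over the 2 libraries that were used. The smaller of the ratios of a member to hem37 and to hem40 ranged between 5.06 and 392, with a median of 12.9. It was at most 10 for 29 members, between 10 and 50 for 16 and above 50 for 16. Some of the highest values rest on few reads outside hem39. The ratio of 392 rests on 1.49 expected counts in hem37. Smaller ratios of the 3 members at 0 in both other libraries were 95.1, 200 and 77.6, and they depend on the added 0.5. The scaffold21978 model, at 224, had uncertain read assignment, as described below. The threshold did not fall in a gap. The 5 members nearest to it had smaller ratios of 5.06 to 5.19, and the 5 models just outside had 4.74 to 4.87.

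**Figure D1:**
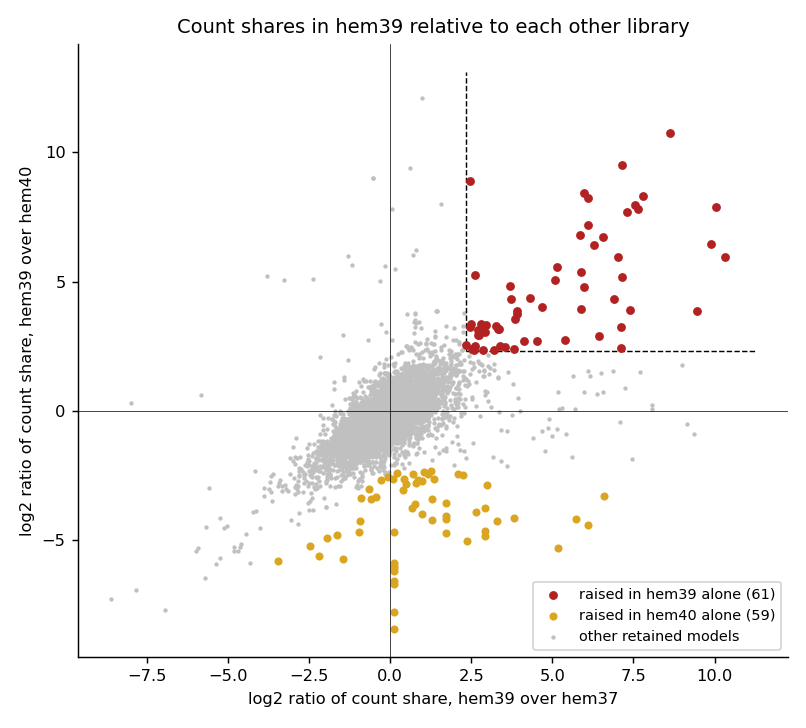
Log2 ratio of the count share of hem39 over hem37 (x axis) and over hem40 (y axis) for the 16140 retained gene models; each point is 1 model, and the dashed lines mark the 5-fold rule. The 61 members fill the upper right corner by construction, without a gap at the threshold, and the 59 models raised in hem40 alone lie in the lower part.

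The members together held 1.71% of the expected counts in hem39, against 0.108% in hem37 and 0.104% in hem40. This summed share was unevenly distributed. The 10 members with the most reads, not corrected for length, held 70.3% of the members' counts in hem39, and a single model held 17.9%. In TPM, which corrects counts for model length and so allows comparison between genes, the members ranged from 2.23 to 3636 in hem39, with a median of 62.1. In hem37 the range was 0 to 267 with a median of 1.70, and in hem40 it was 0 to 268 with a median of 1.77. The medians over all retained models were 9.65 in hem39, 11.2 in hem37 and 12.2 in hem40. The median member thus lay above the median retained model in hem39 and below it in the other libraries. A level of at least 100 TPM was reached by 22 members in hem39 and by 3 members each in hem37 and hem40. In hem39, 2 members were among the 100 highest gene models and 20 among the 1000 highest, whereas in each of the other libraries 1 member was among the 1000 highest. Lower levels of the members outside hem39 follow from the rule. The share of all retained models with at least 100 TPM is not given here.

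**Figure D2:**
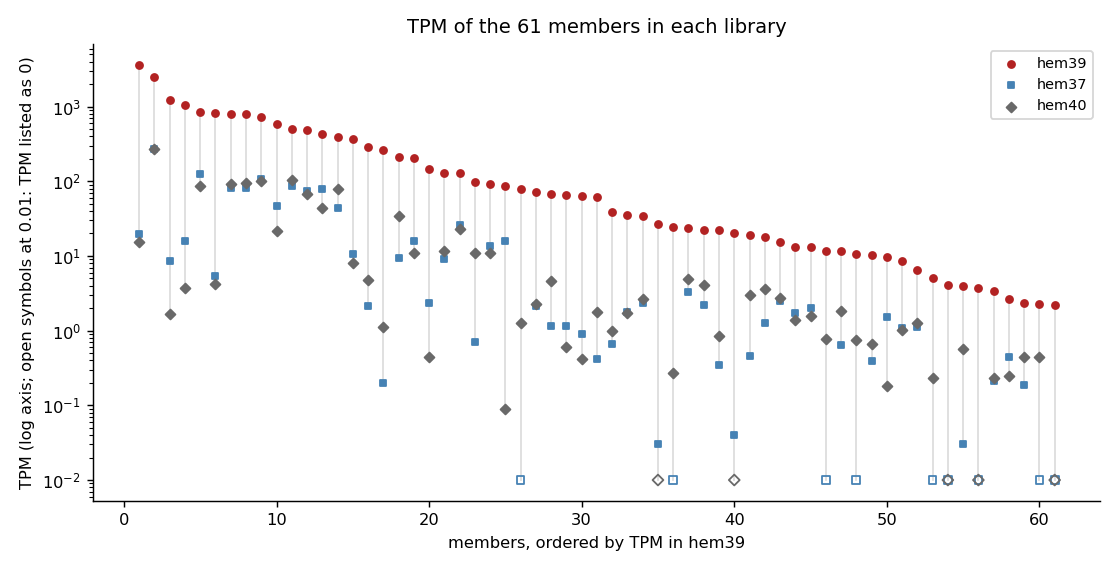
TPM (log axis) of the 61 members, ordered by their value in hem39, with 1 symbol per library; open symbols at 0.01 stand for a TPM listed as 0. The values in hem39 run from 3636 down to 2.23, and the symbols of hem37 and hem40 lie below them for every member, as the rule requires.

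The member with the highest level was maker-scaffold21106-snap-gene-1.39, a model of 834 bases. It had 53259 expected counts in hem39, against 309 in hem37 and 262 in hem40. In TPM this was 3636 in hem39, 19.66 in hem37 and 15.46 in hem40. It ranked at place 39 of all models in hem39 and at places 5786 and 7017 in hem37 and hem40. The ratio of count shares was 188 to hem37, with an exact interval of 168 to 211, and 247 to hem40, with an interval of 219 to 280. These and all further intervals of ratios are at the 95% level (Clopper-Pearson, on rounded counts without the added 0.5) and cover counting error only. Exact intervals of shares are of the same kind and level, but on numbers of gene models. They treat the models as independent, which models sharing reads are not. The TPM intervals given by RSEM are of another kind, and their level is not stated. RSEM assigned its reads without uncertainty in all 3 libraries.

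The next members by TPM differed in their levels outside hem39. Some were low there. In TPM, the scaffold6844 model (492 bases) reached 1208 in hem39, with 8.69 in hem37 and 1.68 in hem40. The scaffold169372 model (1350 bases) was at 1067 TPM in hem39, compared with 16.00 in hem37 and 3.70 in hem40. For the scaffold253511 model (1251 bases), TPM was 823 in hem39 but 5.32 in hem37 and 4.16 in hem40. In these 3 models, the count share in hem39 was at least 67.8 times that in either other library.

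Others were well expressed in every library. The shorter of the members on scaffold78432 (294 bases) was at 2490 TPM in hem39, compared with 267 in hem37 and 268 in hem40. The scaffold62530 model (2037 bases) reached 844 TPM in hem39, with 124 in hem37 and 87.2 in hem40. The scaffold79590 model (262 bases), which is the shortest member, was measured at 800 TPM in hem39, compared with 80.2 in hem37 and 93.4 in hem40. These models were 6.94 to 10.2 times higher in hem39 by count share. The longer scaffold78432 member (561 bases) reached 800 TPM in hem39, compared with 81.9 in hem37 and 93.5 in hem40. The scaffold65855 model (339 bases) was at 716 TPM in hem39, with 108 in hem37 and 100.1 in hem40. The scaffold25715 model (2059 bases) lay between these kinds, at 591 TPM in hem39, 46.5 in hem37 and 21.9 in hem40, and its ratios were 12.9 to hem37 and 28.4 to hem40. Of these 10 models, 4 had identifiers naming both the annotation pipeline and the predictor SNAP, as explained with the model types.

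The highest smaller ratio among members with at least 1 expected count in each library was found for maker-scaffold22358-exonerate_est2genome-gene-1.23, a model of 548 bases. It had 2425 expected counts in hem39, 2 in hem37 and 12 in hem40. Its ratio to hem40 was 236, with an interval of 141 to 477. The ratio to hem37 rests on 2 reads, and its interval ran from 367 to 10951. This is the only member built from an aligned transcript.

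At the other end of the read counts, 10 members were listed at 0 in hem37, in hem40 or in both. Of these, 8 were at 0 in hem37, 5 in hem40 and 3 in both. The scaffold377529 model had 591 counts in hem39, 0 in hem37 and 11 in hem40. With a count of 0 set to a floor of 3, its count share in hem39 was 215 times that in hem37. Its exact interval, which also covers counting error in hem39, began lower, at 175. The scaffold31835 model had 712.81 counts in hem39, 1.49 in hem37 and 0 in hem40. With the same floor, its ratio to hem40 was 289, and its exact interval began at 235. The single member built from protein homology, on scaffold22439, had 43 counts in hem39 and 0 in both other libraries. With the floor, its ratios were 15.7 to hem37 and 17.4 to hem40, and their exact intervals began at 12.2 and 13.6. The lowest count of a member in hem39 was 27, for the scaffold35662 model, which had 5 counts in hem37 and 3 in hem40. Its ratio of 5.47 to hem37 had an interval of 2.24 to 19.6. Both ratios had an interval wholly above 5 for 43 of the 61 members, and at least 1 interval reached to 5 or below for the other 18. The rule used the same counts and threshold, so these numbers describe counting error and nothing further is read from them.

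The rule did not set the order of hem37 and hem40, so these libraries were compared within the members. Over 61 members, the median log2 ratio of hem37 over hem40 was -0.05, and over all retained models it was -0.04. The ratios of the members went both ways. The count shares of hem37 and hem40 were over 2-fold apart for 26 members (42.6%), of which 8 were higher in hem37 and 18 in hem40, and for 6.91% of retained models (363 higher in hem37 and 752 in hem40). Many members had few reads in these libraries, with medians of 35.5 counts in hem37 and 43.4 in hem40, and such members passed the minimum of the mean count through hem39. The share of 42.6% is therefore not comparable with that of the retained models. Among models with at least 100 counts in hem37 and hem40 summed, 7 of 28 members (25.0%) were over 2-fold apart, against 3.65% of the retained models above the same minimum. An exact interval wholly beyond 2-fold was found for 13 members (21.3%) and for 2.11% of retained models, and the same limit holds for this count.

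Of these 13 members, 5 were higher in hem37 and 8 in hem40. They include the scaffold1882 and scaffold52606 models, whose read assignment was uncertain as described below. The scaffold13210 model (2558 bases) had 6856.83 expected counts in hem39, 118.19 in hem37 and 23.60 in hem40. Its ratio of hem37 over hem40 was 5.48, with an interval of 3.51 to 8.88. The scaffold6844 model, with 9972 counts in hem39, had 77 in hem37 and 16 in hem40, which is a ratio of 5.23 with an interval of 3.10 to 9.84. Both were thus graded over the 3 libraries, with hem40 lowest. The opposite order was seen for the scaffold48176 model (2763 bases), which had 5022.42 counts in hem39, 38.82 in hem37 and 652.58 in hem40. Its ratio of hem37 over hem40 was 0.0670, with an interval of 0.0469 to 0.0919. The scaffold118023 model had 6859 counts in hem39, 325 in hem37 and 1292.01 in hem40, and the scaffold15065 model had 4557.92, 84.26 and 365.40 counts in the same libraries. In these 3 models hem40 held an intermediate level.

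The type of gene model is given by the identifier and was not used by the rule. MAKER is an annotation pipeline that selects gene predictions supported by aligned evidence. SNAP is an ab initio gene predictor, which can be run on sequence with repeats masked or unmasked. The evm models come from a program that combines several predictions, and the exonerate models come from alignments of transcripts (est2genome) or proteins (protein2genome). Models whose identifier names both MAKER and SNAP are called MAKER-selected here, which refers to the form of the identifier only. The identifiers do not state whether MAKER also selected the other SNAP models, so no difference in support is read from this name. Among the members, 28 (45.9%) were MAKER-selected SNAP models, 14 (23.0%) were other SNAP models on unmasked sequence, 10 (16.4%) were other SNAP models on masked sequence and 7 (11.5%) were evm models. The remaining 2 were the scaffold22358 and scaffold22439 models described above. Among all retained models, these 4 types held 28.8%, 25.9%, 20.5% and 11.6%, and est2genome models held 12.6%. MAKER-selected SNAP models were therefore more frequent among members than among retained models, and est2genome models were less frequent, with 1 of 61 (1.64%). Any SNAP type accounted for 52 members (85.2%, exact interval 73.8 to 93.0%), compared with 75.2% of the retained models, which lies inside this interval.

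The 59 models raised in hem40 alone by the same rule held 84.7% models of any SNAP type, close to the share among the members, but the single types differed. MAKER-selected SNAP models made up 45.9% of the members and 61.0% of the models raised in hem40 alone, and SNAP models on unmasked sequence 23.0% and 11.9%. The evm models made up 11.5% of the members and 5.08% of the other list, and est2genome models 1.64% and 8.47%. These differences were not tested. Only 6 models were raised in hem37 alone. All of these had uncertain read assignment, and together they held 0.0245% of the counts of hem37. The models raised in hem40 alone held 0.731% of the counts of hem40, less than the 1.71% held by the 61 members in hem39, and their median TPM in hem40 was 6.22, against 62.1 for the members in hem39. The 59 and the 61 models share no model by construction, and both lists rest on the same 3 libraries.

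**Figure D3:**
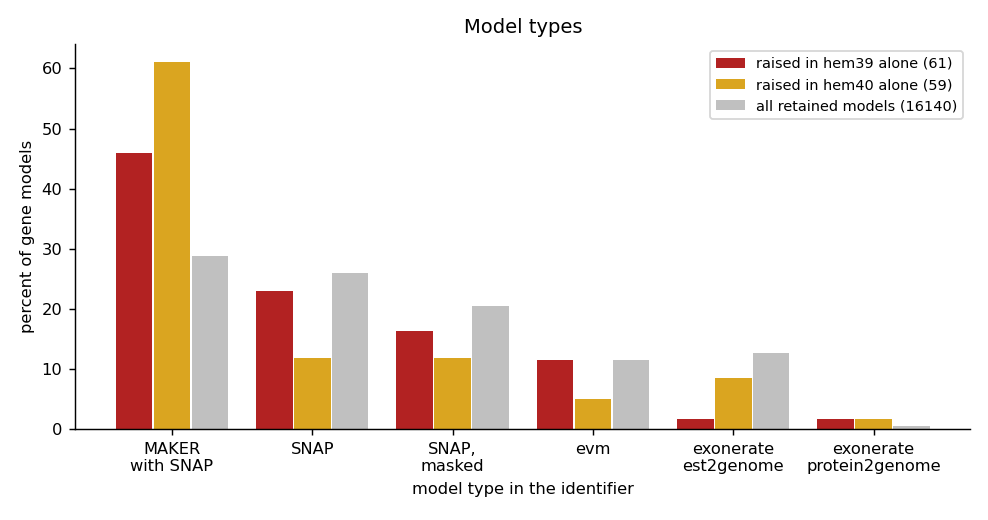
Percent of gene models (y axis) of each model type (x axis) among the 61 models raised in hem39 alone, the 59 raised in hem40 alone and all 16140 retained models. MAKER-selected SNAP models are 45.9% of the members and 28.8% of the retained models, and est2genome models 1.64% and 12.6%.

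Members ranged from 262 to 5484 bases in length. Their median length was 984 bases, with quartiles at 600 and 1683 bases, while the median was 636 bases for all retained models and 1351 bases for the models raised in hem40 alone. Within model types the difference was uneven. For MAKER-selected SNAP models, the median was 1258.5 bases among members and 1239 bases among retained models. By contrast, the SNAP models on masked sequence had a median of 1296 bases among members and 438 bases among retained models, and those on unmasked sequence 648 and 441 bases. The 7 evm members were shorter, with a median of 600 bases against 1566 bases for retained evm models. The longest members were the scaffold11129 model (5484 bases), the scaffold7004 model (4723 bases) and the scaffold113532 model (4669 bases). The scaffold11129 model was at 72.7 TPM in hem39, compared with 2.17 in hem37 and 2.30 in hem40. In the scaffold7004 model, TPM was 38.7 in hem39, with 0.66 in hem37 and 0.98 in hem40. Of these long models, the scaffold113532 model was the lowest, at 19.2 TPM in hem39, compared with 0.46 in hem37 and 3.0 in hem40. Each of the 3 had at least 1656 counts in hem39. More than 1 annotated transcript was listed for 0 of 61 members, which allows a share of up to 5.87%, and for 1.46% of retained models.

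The members lay on 54 scaffolds, of which 6 carried more than 1 member. These 6 scaffolds held 13 members (21.3%, exact interval 11.9 to 33.7%). For 17 members, no other retained model was present on the same scaffold. The other 44 had 118 links to retained models on their scaffolds, counted from each member, and 16 of these links (13.6%) led to another member, compared with members making up 0.378% of retained models. These links are not independent, since each pair of members counts from both sides and the scaffold315641 pair shares reads. For the models raised in hem40 alone, 14 of 79 links (17.7%) led to another model of that list. The distances between models and their strands were not used here. Whether members on different scaffolds lie close to each other in the genome was not tested.

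On scaffold91261, 3 of 5 retained models were members, with 734.01, 327 and 287 counts in hem39, 110.10, 34 and 22 in hem37, and 173.99, 69 and 67 in hem40. The other 2 models on this scaffold had 960.39 and 35.01 counts in hem39, 240.37 and 11.74 in hem37, and 331.45 and 6.90 in hem40. For the model with 35.01 counts, RSEM gave a posterior standard deviation of 24.27 counts in hem39, a measure of uncertain read assignment explained below, so its smaller ratio of 3.17 rests on an uncertain count. The other 4 models were at least 3.52 times higher in hem39 than in either other library by count share. In the 3 members, hem40 lay above hem37. The lower ratio was that to hem40 in each of them, at 5.12, 5.74 and 5.19, and these members lay close to the threshold.

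On scaffold78432, the 2 members had 11352 and 7633.34 counts in hem39, 1304 and 838.77 in hem37, and 1415 and 1032.79 in hem40. Their ratios were alike, at 9.51 and 9.94 to hem37 and 9.76 and 8.99 to hem40. The 3 other retained models there went different ways. One had 76 counts in hem39, 36 in hem37 and 19 in hem40, with ratios of 2.29 and 4.78. Another had 12.63 counts in hem39, 27.25 in hem37 and 15.15 in hem40, with ratios of 0.517 and 1.02. The last had 8.56 counts in hem39, 22.67 in hem37 and 23.99 in hem40, with ratios of 0.427 and 0.450. On scaffold152066, both models on the scaffold were members, with 1675 and 1273 counts in hem39, 138 and 93 in hem37, and 102 and 114 in hem40. The ratios to hem37 were 13.2 and 14.9, and those to hem40 were 19.9 and 13.5.

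On scaffold62603, the 2 members had 7179 and 659 counts in hem39, 222 and 10 in hem37, and 183 and 5 in hem40. The 3 other retained models on this scaffold had 1350, 255.25 and 141 counts in hem39, and their counts in hem39 were below those in hem37 and hem40. A raised level was thus found in 2 of 5 models there and not across the scaffold. On scaffold9281, the 2 members had 151 and 134 counts in hem39, 6 and 8 in hem37, and 11 and 25 in hem40. The other retained models there had 81 and 203.75 counts in hem39, 16 and 79.50 in hem37, and 48 and 194.24 in hem40. Their ratios were 5.40 and 2.79 to hem37 and 2.05 and 1.28 to hem40, so they were also higher in hem39, by less than the members. On scaffold315641, the 2 members had 91.02 and 34.98 counts in hem39 and 0 in hem37 and hem40, and the third model had 303.85 counts in hem39, 357.59 in hem37 and 383.09 in hem40. The members of the last pair shared reads with each other, as described below, and are not independent.

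**Figure D4:**
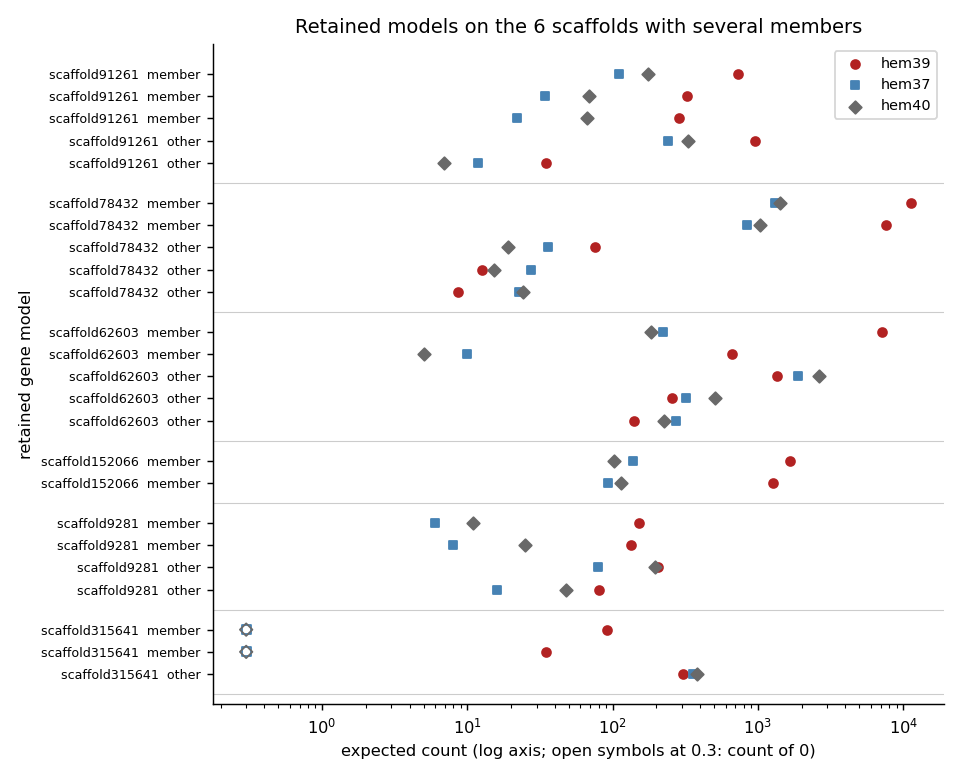
Expected counts (log axis) in the 3 libraries for the 24 retained models on the 6 scaffolds with more than 1 member, grouped by scaffold; open symbols at 0.3 stand for a count of 0. On scaffold91261 the symbols of hem39 lie to the right for all 5 models, and on scaffold62603 for the 2 members only.

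Models on the members' scaffolds that were not members themselves were examined next. There were 89 such retained models, with a median log2 smaller ratio of -0.26, and -0.34 for all retained models. The count share in hem39 was more than 2 times that in both other libraries for 8 of the 89 (8.99%), on 7 scaffolds, and for 2.06% of retained models, a background that includes the members. Of the 8, 4 lay on scaffolds with several members. The highest was the neighbour on scaffold7645, with 444 counts in hem39, 118 in hem37 and 127 in hem40 and a smaller ratio of 4.10. The neighbour on scaffold21106, which also holds the member with the highest TPM, had 2425 counts in hem39, 917 in hem37 and 1466 in hem40 and a smaller ratio of 2.01.

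Uncertainty of read assignment was read from the posterior standard deviation that RSEM gives for each count, which is above 0 where reads match more than 1 model. It was 0 in all 3 libraries for 39 members, so that their counts rest on reads assigned to a single model. It was above 0 in hem39 for the other 22 (36.1%, exact interval 24.2 to 49.4%), compared with 66.3% of all retained models and 33.9% of models raised in hem40 alone (in hem40). Of the 22, 10 had a posterior standard deviation under 1% of the count in hem39 and 9 over 10%. Over 10% was also found for 20.3% of retained models. These numbers refer to hem39 only. Members under 10% there but over 10% elsewhere were the scaffold7489 (29.1% in hem40), scaffold31835 (32.9% in hem37) and scaffold64628 models (17.6% in hem40). By model type, the posterior standard deviation in hem39 was above 0 for 8 of 28 MAKER-selected SNAP members. Among the other SNAP members, it was above 0 for 5 of 14 on unmasked sequence and 7 of 10 on masked sequence. Among retained models these types had shares of 36.3%, 86.3% and 87.4%. The 10 members with the highest TPM in hem39 had values of 0 in hem39, except for the longer scaffold78432 member (0.0533% of the count).

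**Figure D5:**
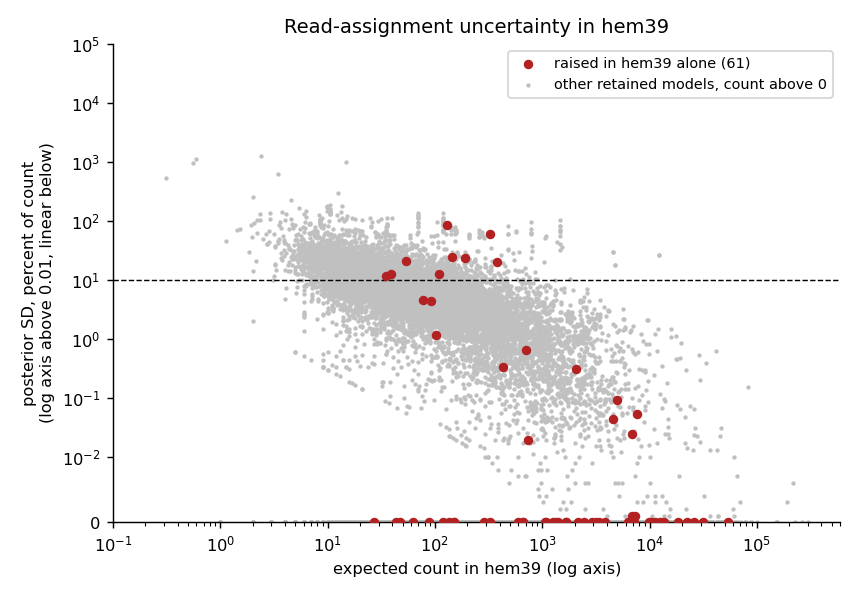
Posterior standard deviation as percent of the expected count in hem39 (y axis, logarithmic above 0.01 and linear below) against the expected count in hem39 (log axis) for members and for other retained models with a count above 0. The dashed line marks 10%; 9 of 61 members lie above it, and most members lie at 0.

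RSEM's own TPM intervals of hem39 lay above those of both other libraries for 59 members, and for 5.73% of retained models. The rule used the same contrast, so nothing is read from the higher share. The 2 members with overlapping intervals were the scaffold21978 and scaffold1882 models. For the scaffold21978 model (312 bases), the expected count was 130.45 in hem39, 0.14 in hem37 and 0 in hem40, but the posterior standard deviation was 111.95 in hem39, 71.96 in hem37 and 84.53 in hem40. Its posterior mean counts, which average over the possible assignments, were 158.80 in hem39, 88.81 in hem37 and 78.34 in hem40, so that the ratio of hem39 was 1.95 to hem37 and 2.46 to hem40. From expected counts, the same ratios were 224 and 319.

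The scaffold1882 model (1683 bases) had 324.88 expected counts in hem39, 0.01 in hem37 and 26.59 in hem40, with a posterior standard deviation of 59.2% of the count in hem39. Its posterior mean counts were 238.60 in hem39, 93.47 in hem37 and 90.10 in hem40, with ratios of 2.78 and 3.21. The scaffold52606 model (285 bases) had 376.74 expected counts in hem39, 75.26 in hem37 and 0.46 in hem40, and posterior mean counts of 375.30, 112.17 and 58.94 in the same libraries. Its interval of TPM was 48.2 to 119 in hem39, 1.29 to 47.1 in hem37 and 0.000541 to 31.1 in hem40. The intervals of hem39 and hem37 were narrowly apart. The scaffold14874 model had a posterior standard deviation of 24.3% of the count in hem39, and the scaffold5084 model of 23.7%, with posterior mean ratios of 5.57 and 4.33 to hem37. The scaffold125959 model had 54.23 expected counts in hem39, 0 in hem37 and 2.86 in hem40, with a posterior standard deviation of 20.9% of the count in hem39 and posterior mean ratios of 18.6 and 8.0. With posterior mean counts in place of expected counts, 57 models met the rule, and all 57 were among the 61 members. The 4 that no longer met it were the scaffold21978, scaffold1882, scaffold52606 and scaffold5084 models.

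In 3 cases the model that shared reads with a member could be proposed from the files. These pairs had the same posterior standard deviation in every library and counts that summed to whole numbers in every library, both within 0.015. The members on scaffold315641 formed such a pair with each other and held 126 reads together in hem39 and 0 in hem37 and hem40. The scaffold31835 member was paired with a model on scaffold177507 that had 9.19 counts in hem39, and the pair had 722 reads in hem39, 2 in hem37 and 0 in hem40. The scaffold48176 member was paired with a model of 1460 bases on the same scaffold, which had 632.58 counts in hem39, 1145.18 in hem37 and 1239.42 in hem40. Summed, this pair was 5.22 times higher in hem39 than in hem37 and 3.64 times higher than in hem40. The partner model alone was thus lower in hem39 than in either other library, while the posterior standard deviation of the member in hem39 was 4.62 counts out of 5022.42.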

How the data were processed

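RNA from hemocytes of 3 libraries was sequenced as single-end reads after TruSeq version 2 preparation. The submitters' processing notes name HISAT2 2.0.4 and RSEM 1.2.30, and the authors calculated expression per gene model with RSEM. For the annotation release, the sources used here give no name. The authors deposited, per library, expected counts (estimated reads per model, not normalized) and posterior mean counts, as well as TPM, which is scaled to the same total in each library and corrected for effective length. The deposited posterior standard deviations and TPM interval bounds were handled as scores, and the level of these intervals is not stated. No columns of unlabelled samples were present.

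Members were found with pandas 2.3.3 and numpy 2.4.6 in Python 3.11.15 from shares of expected counts (minimum mean of 10, 0.5 added, threshold of 5 times). Exact intervals (scipy 1.17.1) used counts rounded to whole numbers, as did scaling with edgeR 4.0.16 and DESeq2 1.42.0 in R 4.3.3, which was used as an alternative only. No differential test was run, because there is a single group. The member rule and its interval were tested on simulated data with counting error only and planted changes well above the threshold. Changes near the threshold, variation between libraries and uncertain read assignment were not simulated. Members and comparisons were chosen with earlier results of these data known. Named models were the highest by TPM in hem39, by smaller ratio, by posterior standard deviation and by length, and those on the 6 scaffolds with several members. Models named for the order of hem37 and hem40, for a count of 0 or the lowest count, as a neighbour, for shared reads, or for no longer meeting the rule were chosen after their values were seen. No genome, annotation or sequence was used here, so coordinates and sequences are not given. The bisulfite and chromatin accessibility data of the study were not analysed here. Figures were drawn with matplotlib 3.10.9.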

Additional observations from a re-analysis of the deposited data

How the results depend on the processing

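The number of members stayed within 1.5 times 61 under 9 of 15 alternatives, including TMM and DESeq2 scaling (70 each, with all 61 members), TPM with 0.1 added (52), exact intervals (43), posterior mean counts (57) and omission of members with a posterior standard deviation over 10% (52). The last of these removes 9 members by definition, and all alternatives reuse the same libraries, so the numbers are not independent. The number of members was 134 at a 3-fold threshold and 32 at 10-fold, 168 without a minimum count and 40 with RSEM's interval bounds. Leaving out hem37 or hem40 gave 136 to 138. Without hem39 the rule has no value. The scalings raised the log2 ratio of hem39 to hem37 by 0.17 to 0.18 and to hem40 by 0.21 to 0.23. The share of SNAP models lay inside its interval under all 15 alternatives, that of members on common scaffolds under 14 and that of members with uncertain read assignment under 13. Each alternative list either lay within the 61 members or held all of them, so the shares overlap by construction. The interval of the SNAP share (73.8 to 93.0%) also contains the 75.2% of all retained models. Without a minimum count the share on common scaffolds was 10.1% and the share with uncertain assignment 56.5%. With 1 library left out, the share with uncertain assignment was 41.3 to 51.5%, the higher value without hem37. Posterior mean counts and the omission at 10% were added as alternatives after seeing the data. No paired analysis was possible because all 3 libraries belong to 1 group.

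Depth limits the members with few reads in hem37 and hem40. A library at 0 allows up to 3 counts only where read assignment is certain. It was not certain for the scaffold21978 model in hem40 and the scaffold125959 model in hem37. The reads carry no molecular identifiers, so amplification copies could not be told from separate molecules. The intervals of ratios treat reads as independent and cover counting error only.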
